A study of Mus musculus with 8 samples.

Results

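Loss of Dlx1 and Dlx2 in the cortex was described by setting Ctx -/- (2 arrays) against Ctx +/- (2 arrays), chosen by the sample titles, which is 4 of the 8 arrays of the series. The other 4 arrays are basal ganglia (BG) +/- and -/-, with 2 arrays each, and serve here to show where the cortex differs. All 8 are mouse RNA on oligonucleotide arrays. Both cortical groups come from animals that the series title describes as Dlx1/2 mutants, so the Ctx +/- arrays are heterozygous controls and not wild type. The labels give no age, sex, strain, allele or pooling, and nothing in them says that replicates came from separate animals, so p-values here reflect array-to-array spread only, some or all of which could be technical. The titles also carry the words blood and adrenal medulla, at odds with the cortex given as the tissue in the descriptions.

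Dlx1 and Dlx2 encode homeobox transcription factors, lie side by side and are made in the ganglionic eminences of the ventral forebrain, where most cortical interneurons are born. These GABA-making neurons migrate tangentially into the cortex, while the glutamatergic neurons of the cortex arise locally from its own progenitors. Genes of GABA synthesis, of interneuron identity and of interneuron migration are therefore read in a cortical sample as traces of the immigrant population. In RNA from whole tissue, fewer cells of a type and less RNA per cell cannot be told apart.

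The labelled tissue was checked on its markers. Neurod6, a transcription factor of cortical glutamatergic neurons, had signals of 4976 and 4119 in Ctx +/- and 4490.0 and 4566 in Ctx -/-, against 493 and 592 in BG +/-. Isl1, a transcription factor of striatal neurons, had signals of 10.5 and 4.74 in Ctx +/- and 15.8 and 12.3 in Ctx -/-, against 1499 and 1629 in BG +/-. The cortical arrays therefore carried the cortical marker and had low signals of the striatal one. Th, a catecholamine enzyme gene of the adrenal medulla list, had signals of 11.5 and 2.9 in Ctx +/- and of 3.53 and 11.9 in Ctx -/-, all below 16. Other members of that list were above 16. Dbh had 62.4 and 56.7 in Ctx +/- and 56.8 and 31.1 in Ctx -/-. Slc18a2 had 90.0 and 76.7 against 118 and 113, and Cyb561 had 69.8 and 47.6 against 22.4 and 34.1. The source of these signals was not tested. Of the adrenal medulla list, 9 of 12 genes were tested, and their summed signal was 839.8 and 829 in Ctx +/- and 776 and 817 in Ctx -/-, of which Chga and Chgb, granins that neurons also make, were the largest.

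The genotypes also differed in sex-linked transcripts. Xist, the RNA of the inactive X chromosome, had signals of 62.6 and 67.5 in Ctx +/- and of 2457 and 2363 in Ctx -/-. Eif2s3y, a Y-linked translation factor gene, had signals of 448 and 342 in Ctx +/- and of 3.97 and 6.46 in Ctx -/-. Uty and Kdm5d on the Y chromosome were lower and Mid1 on the X chromosome was higher in Ctx -/-, and the same split was seen between the BG genotypes. Sex-linked expression and genotype cannot be told apart here, so the 445 genes on X and the 8 on Y were set aside, and all counts below are of the 13139 autosomal genes tested. The share of low signals overlapped between the genotypes, with 28.4% and 34.1% of signals below 16 in Ctx +/- and 32.8% and 32.7% in Ctx -/-. Over all probe sets, the log2 values of Ctx +/- replicate 2 correlated with the Ctx -/- arrays at 0.969 and 0.969, and those of Ctx +/- replicate 3 at 0.977 and 0.977. The Ctx +/- arrays correlated with each other at 0.973 and the Ctx -/- arrays at 0.982, so replicate 3 was nearer to the other genotype than to its own replicate.

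More genes fell than rose in the cortex. At a Benjamini-Hochberg adjusted p under 0.05 in limma, 22 autosomal genes were lower in Ctx -/- and 1 was higher, which is 0.167% and 0.00761% of the genes tested. Of the 23 genes, 15 belong to the 25 gene lists used here, which were drawn up with earlier results of these data known and hold 340 (2.59%) of the autosomal genes tested. All 15 are in 7 lists, on the DLX family, GABA synthesis, interneuron regulators, markers and migration, neurexins with their ligands, and choroid plexus. The migration list is among them only through Nxph1 and Nxph2, which are also in the neurexin list and are counted once. The median change over all autosomal genes was -0.03 on the log2 scale. Arrays of the genotypes did not overlap in 3087 genes that were lower (23.5%) and in 2069 that were higher (15.7%), so an absence of overlap is common in this comparison. At an unadjusted p under 0.05 there were 1127 autosomal genes. The count of lower genes rests on every array: leaving out Ctx +/- replicate 2 or 3 gave 5 or 9 genes, and leaving out Ctx -/- replicate 2 or 3 gave 5 or 6. Leaving out a BG array, which takes part in the estimate of the spread, gave 9, 9, 12 and 12, and the higher gene passed in none of the 8. Other settings gave more genes in both directions: 55 lower and 19 higher with a trend on mean signal in eBayes, 35 and 11 with an offset of 64, and 27 and 7 with the lowest 50% of probe sets left out. The share of higher genes among those that passed was 4.35% here and 25.7%, 23.9% and 20.6% under these 3 settings. Ttr, Gad1 and Lhx6 passed in all 18 alternative analyses, each of the other 20 genes missed the threshold in at least 1, and all 23 kept their sign in every alternative that tested them.

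**Figure D1:**
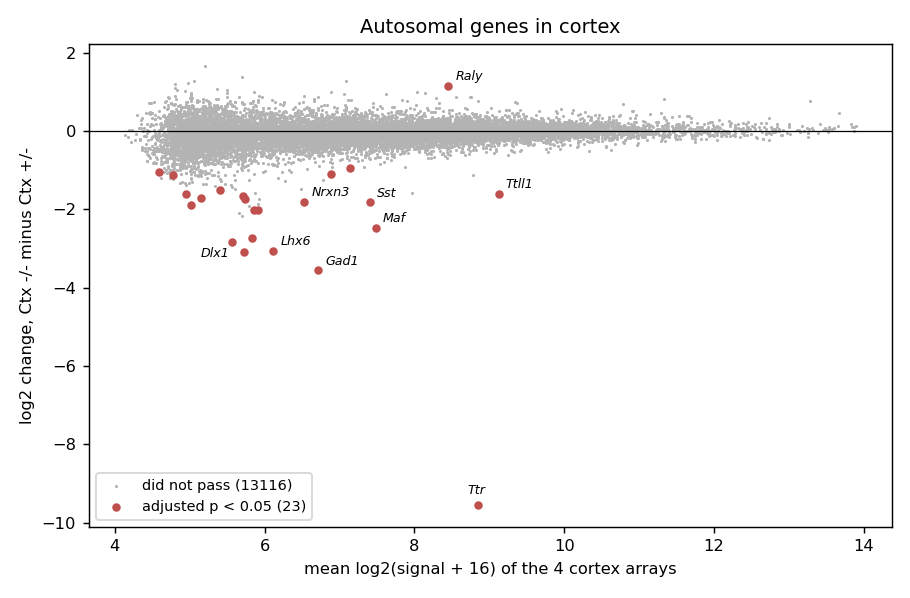
Change of each autosomal gene in the cortex against its mean level. The horizontal axis is the mean log2(signal + 16) over the 4 Ctx arrays, the vertical axis is the log2 change from Ctx +/- to Ctx -/-, and filled points are the 23 genes with a limma adjusted p under 0.05; nearly all of these lie below 0, with Raly the only one above it and Ttr the lowest at -9.54.

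By chromosome, 9 of the 23 genes lay on chromosome 2, which holds 8.33% of the autosomal genes tested. They were Dlx1, Dlx2, Dlx1as, Gad1, Gad2, Lhx6, Nxph2, Slc32a1 and Raly. Of these, Dlx1, Dlx2 and Dlx1as belong to the targeted locus itself, which the share of 8.33% does not allow for. On chromosome 2 the share of genes that passed was 0.823%. This was a description made after the genes were known, and no test was made of it.

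The promoters of 3 of the lower genes are shown as examples of the windows searched: Dlx6os1 has the most copies of a homeodomain core word, Sst holds a cyclic AMP response element, and Gad1 holds neither although it fell strongly. Each run is the 250 bases before the transcription start, 5′ to 3′ on the gene's strand, from RefSeq on GRCm38.p6. Capitals mark TAATTA, the core word bound by many homeodomain proteins including the DLX family, or TGACGTCA, the cyclic AMP response element. The windows lie at chr6:6869534-6869783 on the minus strand for Dlx6os1, at chr16:23890845-23891094 on the minus strand for Sst and at chr2:70561879-70562128 on the plus strand for Gad1.
Dlx6os1: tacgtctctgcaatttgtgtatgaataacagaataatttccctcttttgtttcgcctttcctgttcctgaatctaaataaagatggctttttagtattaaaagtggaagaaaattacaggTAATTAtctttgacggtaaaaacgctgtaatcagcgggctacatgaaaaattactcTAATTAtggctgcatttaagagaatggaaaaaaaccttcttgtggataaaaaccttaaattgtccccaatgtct
Sst: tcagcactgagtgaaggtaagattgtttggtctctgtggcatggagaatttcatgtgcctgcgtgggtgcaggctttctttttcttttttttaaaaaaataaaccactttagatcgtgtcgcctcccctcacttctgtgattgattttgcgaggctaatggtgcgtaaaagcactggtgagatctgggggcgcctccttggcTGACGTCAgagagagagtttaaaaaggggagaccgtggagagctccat
Gad1: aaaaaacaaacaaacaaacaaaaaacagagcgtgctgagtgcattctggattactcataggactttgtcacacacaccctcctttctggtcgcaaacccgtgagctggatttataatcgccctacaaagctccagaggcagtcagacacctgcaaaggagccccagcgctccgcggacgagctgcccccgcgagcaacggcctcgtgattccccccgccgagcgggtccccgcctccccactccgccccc

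Of the 22 lower genes, 17 had a promoter in the RefSeq table, with 25 windows in all since some genes have several starts. TAATTA, which reads the same on both strands, was found in 2 windows, both of Dlx6os1, which held 3 copies between them. In the window shown the copies began 130 and 74 bases before the start. The same word occurred in 4.84% of the 32851 promoter windows of this length in the table. The shorter word TAATT, which TAATTA contains, was searched on both strands and occurred in 7 windows of 6 genes, against 25.0% of all windows. TGACGTCA began 48 bases before the start of Sst and occurred in 1.55% of all windows. A match describes letters and is not a binding site, and these windows hold no distal enhancer.

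Dlx1, Dlx2 and the noncoding RNAs Dlx1as and Dlx6os1 were lower in the cortex. Of 8 genes listed, 7 were tested: 4 passed as lower, none as higher, and the median change was -1.65 on the log2 scale. Dlx1 had signals of 138 and 137 in Ctx +/- and of 2.42 and 1.74 in Ctx -/-. The Ctx -/- mean was 1.51% of the Ctx +/- mean, a log2 change of -3.09 ± 0.21 (SE, n = 2 arrays a group, adjusted p = 0.00394 in limma). Dlx2 had signals of 55.3 and 55.3 in Ctx +/- and of 12 and 6.69 in Ctx -/-. Its log2 change was -1.50 ± 0.16 (limma adjusted p = 0.0250). For both targeted genes the -/- arrays lay under the +/- arrays, as the labels have it, although where the probes lie relative to the mutation is not given in the sources used here.

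Both long noncoding RNAs of the DLX loci fell with the coding genes. Dlx1as, transcribed antisense at the Dlx1 and Dlx2 locus, had signals of 107 and 102 in Ctx +/- and of 17.2 and 11.1 in Ctx -/- (log2 change -2.01 ± 0.18, limma adjusted p = 0.0120). Dlx6os1, also called Evf, transcribed at the Dlx5 and Dlx6 locus, had signals of 92.6 and 62.7 in Ctx +/- and of 15.2 and 11.9 in Ctx -/-. Its log2 change was -1.65 ± 0.20 (limma adjusted p = 0.0436). Dlx1as overlaps Dlx1, and whether the probes of each tell the strands apart is not given in the sources used here.

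The genes of the second DLX pair did not pass. Dlx5 had signals of 93.9 and 92.3 in Ctx +/- and of 1.82 and 17.7 in Ctx -/-, so its arrays did not overlap, but the Ctx -/- arrays differed from each other (log2 change -2.16 ± 0.27, limma adjusted p = 0.0525). Its adjusted p ran from 0.000746 to 0.351 over the alternatives, and it passed in 5 of the 18, one of them without Ctx -/- replicate 3. Dlx6 had signals of 25.3 and 2.17 in Ctx +/- and of 2.03 and 1.29 in Ctx -/-. With 1 of the controls near the floor, Dlx6 was not measured well enough to compare (log2 change -0.63 ± 0.35, limma adjusted p = 0.611).

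The enzymes that make GABA and the transporter that loads it into vesicles were also lower. Of 7 genes listed for GABA synthesis and transport, 5 were tested, 3 passed as lower and none as higher, with a median change of -1.74. Gad1, which encodes the glutamate decarboxylase GAD67, had signals of 349.9 and 338 in Ctx +/- and of 10.1 and 20.3 in Ctx -/-. That left 4.43% of the control mean, a log2 change of -3.55 ± 0.18 (limma adjusted p = 0.000833). Gad2, for the second decarboxylase GAD65, had signals of 75.5 and 89.1 in Ctx +/- and of 14.3 and 12.3 in Ctx -/-, which left 16.2%. Its log2 change was -1.74 ± 0.14 (limma adjusted p = 0.00756). Slc32a1, the vesicular GABA transporter, had signals of 46.4 and 46.5 in Ctx +/- and of 1.35 and 0.364 in Ctx -/-. All 4 arrays were low, and those of Ctx -/- were near the floor (log2 change -1.89 ± 0.20, limma adjusted p = 0.0231). Each of these 3 genes had a second, dimmer probe set, which was also lower but did not pass, at -1.29 for Gad1, -0.43 for Gad2 and -0.44 for Slc32a1. Abat, which breaks GABA down, had signals of 74.2 and 81.7 in Ctx +/- and of 71.8 and 37.6 in Ctx -/- and did not pass (limma adjusted p = 0.589).

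**Figure D2:**
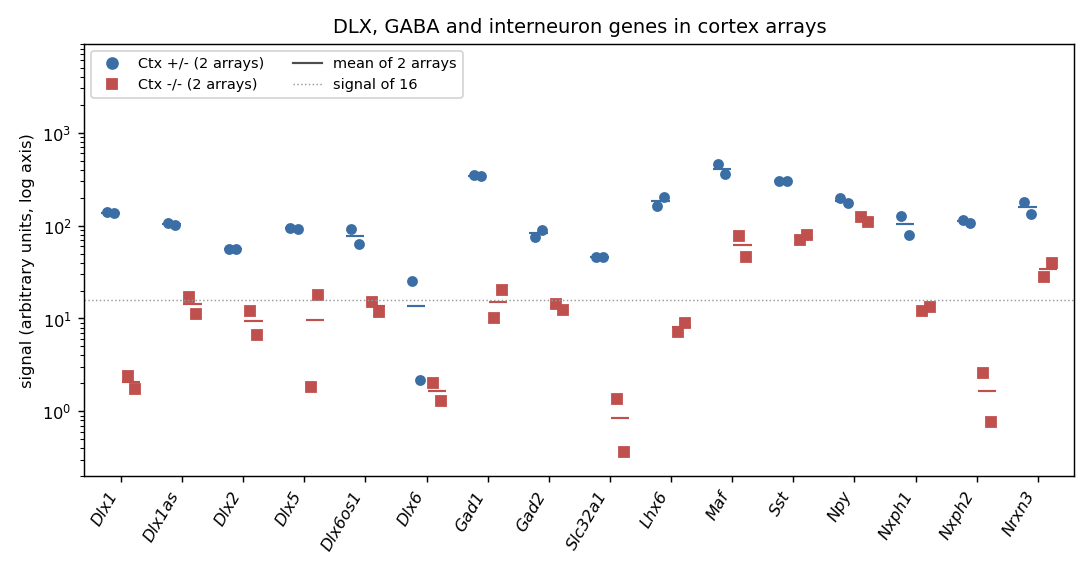
Signals of DLX, GABA and interneuron genes in the 4 Ctx arrays. The vertical axis is the deposited signal on a log scale, each point is 1 array, short bars are means of 2 arrays, and the dotted line is a signal of 16; Gad1 is at 349.9 and 338 against 10.1 and 20.3.

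Among regulators of interneurons from the medial ganglionic eminence, 2 genes fell and most did not pass. Of 15 listed, 11 were tested, 2 passed as lower and none as higher, and the median change was -0.22. Lhx6, the LIM homeobox factor of interneurons born there, had signals of 164 and 204 in Ctx +/- and of 7.19 and 8.95 in Ctx -/-. The Ctx -/- mean was 4.38% of the control mean (log2 change -3.05 ± 0.14, limma adjusted p = 0.000462), and a second probe set passed at -1.34 (adjusted p = 0.0449). Maf, a basic leucine zipper factor also made by these interneurons, had signals of 459 and 356 in Ctx +/- and of 77.5 and 46.3 in Ctx -/-. Its log2 change was -2.46 ± 0.22 (limma adjusted p = 0.0125), and all of its 6 probe sets were lower, 2 of them past the threshold. Satb1, a chromatin organiser used by somatostatin interneurons, had signals of 551 and 724 against 431 and 451 and did not pass (log2 change -0.50 ± 0.16, limma adjusted p = 0.367). Cux2 had signals of 316 and 311 against 232 and 249 (limma adjusted p = 0.511).

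Of the neuropeptides and other interneuron markers, somatostatin alone passed. Of 16 listed, 11 were tested, and the median change was -0.12. Sst had signals of 299.5 and 306 in Ctx +/- and of 69.4 and 79.4 in Ctx -/-. The arrays of each group were close together and far from the other group, and 24.6% of the signal remained (log2 change -1.82 ± 0.13, limma adjusted p = 0.00394). Npy, neuropeptide Y, had signals of 197 and 175 in Ctx +/- and of 123 and 110.1 in Ctx -/- (log2 change -0.61 ± 0.13, limma adjusted p = 0.207). Calb1, the calcium buffer calbindin, had signals of 51.3 and 47.9 against 32.1 and 22.5 (log2 change -0.61 ± 0.14, limma adjusted p = 0.262). Reln, the secreted guidance protein of Cajal-Retzius cells and of some interneurons, had signals of 1935 and 2638 against 2909 and 2916 (log2 change 0.36 ± 0.16, limma adjusted p = 0.544). The arrays of Npy, Calb1 and Reln did not overlap between genotypes, yet none of these genes passed.

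Nrxn3 and the neurexophilins Nxph1 and Nxph2 were lower, while the other 12 genes tested of the same list did not pass. Neurexins are presynaptic adhesion receptors, and neurexophilins are secreted ligands of neurexins. Of 16 genes listed, 15 were tested, 3 passed as lower and none as higher, and the median change was -0.17. Nxph1 had signals of 127 and 79.7 in Ctx +/- and of 12.2 and 13.3 in Ctx -/- (log2 change -2.03 ± 0.19, limma adjusted p = 0.0174). Of its 3 probe sets, 2 passed, and the other, dim on all arrays, was at -0.09. Nxph2 had signals of 116 and 106 in Ctx +/- and of 2.58 and 0.768 in Ctx -/- (log2 change -2.84 ± 0.32, limma adjusted p = 0.0319). Nrxn3, a neurexin gene with many isoforms, had signals of 181 and 134 in Ctx +/- and of 28.0 and 39.4 in Ctx -/- (log2 change -1.80 ± 0.18, limma adjusted p = 0.0201). Of its 5 probe sets, 3 passed as lower, 1 was at -1.05 and 1 at 0.05 without passing. Nlgn2, the neuroligin of inhibitory synapses, had signals of 339 and 366 against 259.8 and 274 and did not pass (limma adjusted p = 0.41).

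In the list of migration signals and receptors, 2 genes passed, and both are neurexin ligands that are also in the list above. Of 32 listed, 29 were tested, and those that passed were Nxph1 and Nxph2. The other 27 did not pass. In 12 of the 29 the arrays did not overlap and were lower in Ctx -/-, and in 7 they were higher, beside 23.5% and 15.7% of all autosomal genes. Ackr3, a receptor that scavenges the chemokine CXCL12, had signals of 323 and 534 in Ctx +/- and of 112 and 147 in Ctx -/- (log2 change -1.58 ± 0.25, limma adjusted p = 0.109). It passed with an offset of 64, with the lowest 50% left out and with a trend in eBayes, and its adjusted p ran from 0.00115 to 0.445 over the alternatives. Cxcr4, the signalling receptor for the same chemokine, had signals of 287 and 324 against 258 and 217 (log2 change -0.34 ± 0.14, limma adjusted p = 0.497). Nrg1, a ligand of the ERBB4 receptor of migrating interneurons, had signals of 53.2 and 69.0 against 108 and 96.2 (log2 change 0.62 ± 0.16, limma adjusted p = 0.306). None of these 3 passed, although their arrays did not overlap between genotypes.

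Markers of the lateral and caudal eminences were lower or higher by small amounts and none of the 13 tested passed, with a median of -0.09. Htr3a, the serotonin receptor subunit of caudally born interneurons, had signals of 116 and 53.4 in Ctx +/- and of 33.8 and 44.4 in Ctx -/- (log2 change -0.80 ± 0.29, limma adjusted p = 0.449). The arrays of Ctx +/- differed from each other more than the nearer of them differed from Ctx -/-. Of the list of GABA receptor genes, which also holds the chloride transporter genes Slc12a2 and Slc12a5, 11 were tested. None passed, and the median was -0.0011. Gabrg3 came nearest, with signals of 11.3 and 18 against 1.59 and 1.07 (limma adjusted p = 0.143).

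On the probe sets that represent them, genes of the resident cortical lineages did not pass in either direction, nor did the broader cell cycle and neuron maturation genes. This held for all 22 tested genes of glutamatergic neurons (median 0.01), all 11 of intermediate progenitors (-0.06), all 22 of radial glia (0.01), all 31 of the cell cycle (0.01) and all 25 of neuron maturation (-0.07). Nfia, in the glutamatergic list, passed as lower on another probe set (log2 change -1.53 ± 0.12, limma adjusted p = 0.00642). Fezf2, a regulator of subcerebral projection neurons, had signals of 1116 and 1326 in Ctx +/- and of 1306 and 1308 in Ctx -/-. Bcl11b, made in deep-layer neurons and in interneurons, had signals of 1872 and 1827 against 1843 and 1849. In both genes the arrays of the genotypes overlapped. Eomes, the marker of intermediate progenitors, had signals of 839 and 1041 against 980.2 and 1217 and also overlapped. Nes, the intermediate filament of radial glia, had signals of 369.8 and 410.0 against 252 and 258, and Sox2, a factor of neural progenitors, 1499 and 1152 against 1002 and 1002. These 2 genes were lower in both Ctx -/- arrays without passing (log2 changes -0.58 ± 0.14 and -0.39 ± 0.15, limma adjusted p = 0.284 and 0.477). Striatal projection neuron genes (23 tested, median 0.08), ventral progenitor genes (14 tested, median -0.01) and Cajal-Retzius and subplate genes (15 tested, median 0.13) did not pass either.

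**Figure D3:**
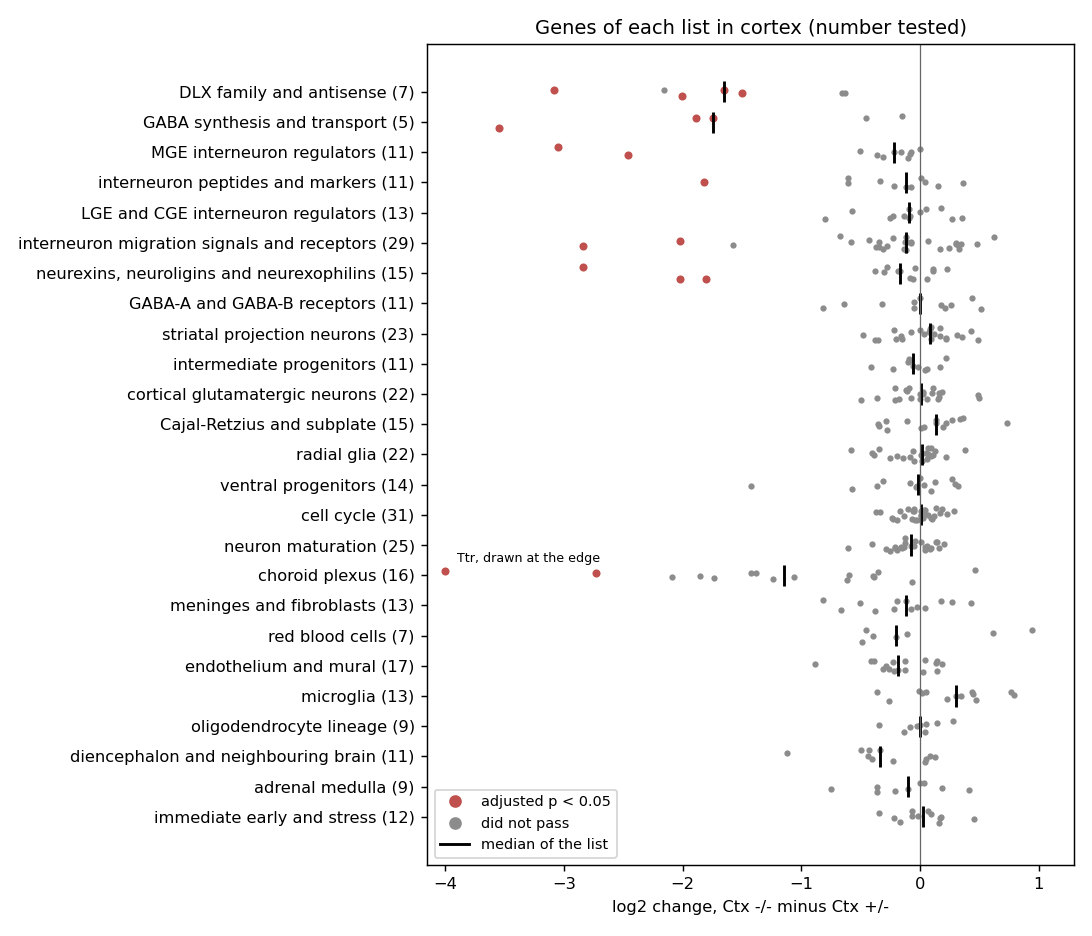
Log2 change from Ctx +/- to Ctx -/- of every tested member of each gene list. Each point is 1 gene, the bar is the median of the list, filled points passed the limma threshold, and Ttr, at -9.54, is drawn at the edge of the axis; the DLX, GABA and choroid plexus lists have the lowest medians at -1.65, -1.74 and -1.15.

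The largest single difference was in a choroid plexus gene. Ttr, which encodes the thyroid hormone carrier transthyretin secreted by choroid plexus, had signals of 11634 and 13605 in Ctx +/- and of 1.11 and 0.701 in Ctx -/-. Its log2 change was -9.54 ± 0.21 (limma adjusted p = 1.55e-05), and all 4 of its probe sets passed. Kcne2, a potassium channel subunit of that epithelium, had signals of 135 and 126 in Ctx +/- and of 9.64 and 2.98 in Ctx -/- (log2 change -2.73 ± 0.23, limma adjusted p = 0.00895). Of 25 genes listed for choroid plexus, 16 were tested, 2 passed as lower and none as higher, and the median was -1.15. In 12 of the 16 both Ctx -/- arrays lay below both Ctx +/- arrays, beside 23.5% of all autosomal genes. The filter kept probe sets by their mean over all 8 arrays, Ctx +/- included. Genes dim elsewhere, such as Kcne2 (11.7 and 4.09 in BG +/-), could thus be tested through high Ctx +/- signals. The 12 and the median may lean toward lower for that reason, and by how much was not tested. Other members did not pass on the probe set that represents them. Calml4 was at 112 and 68.7 against 10.7 and 6.6, and Folr1, a folate receptor, at 107 and 90.1 against 25.9 and 7.69. Otx2, a homeobox factor of the choroid plexus, was at 66.9 and 55.6 against 13.6 and 12. Clic6 did not pass at -1.73, but another of its probe sets passed at -2.56 ± 0.30 (limma adjusted p = 0.0406).

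The summed signal of the 16 choroid plexus genes was 13089 and 14968 in Ctx +/- and 902 and 765 in Ctx -/-. Without Ttr the sum was 1455 and 1363 in Ctx +/- and 900.5 and 764 in Ctx -/-. The Ctx -/- sums were near those of the 4 BG arrays, which ran from 682 to 742 without Ttr. The choroid plexus signal therefore moved with genotype in the same arrays as the interneuron genes, and its part in any other change was not tested. Microglial genes had higher sums in Ctx -/-, at 754 and 689 in Ctx +/- and 819 and 932 in Ctx -/-, with no member past the threshold. Red blood cell genes summed to 2315 and 2061 against 1508 and 1708, also with none past it.

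**Figure D4:**
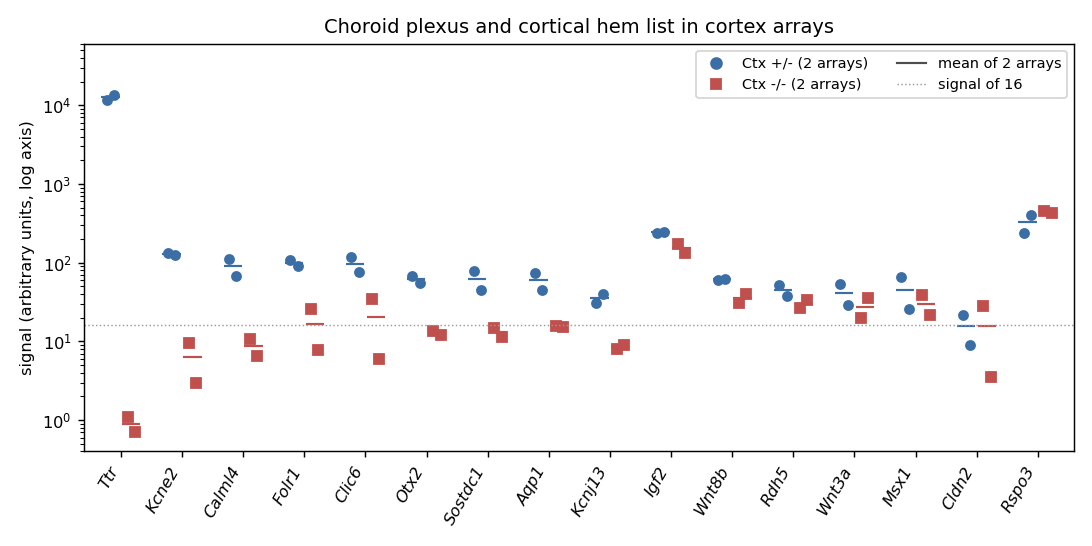
Signals of choroid plexus genes in the 4 Ctx arrays. The vertical axis is the deposited signal on a log scale, each point is 1 array, short bars are means of 2 arrays, and the dotted line is a signal of 16. Ttr is at 11634 and 13605 in Ctx +/- and at 1.11 and 0.701 in Ctx -/-. On the probe sets drawn, only Ttr and Kcne2 passed the test.

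Outside these lists, 7 genes were lower and 1 was higher. Ttll1, a subunit of the enzyme that adds glutamate chains to tubulin, had signals of 882 and 1036 in Ctx +/- and of 299 and 309 in Ctx -/- (log2 change -1.60 ± 0.13, limma adjusted p = 0.00756). It was the brightest of the 7, and its other probe sets did not pass, at -1.01 and 0.36. Rbms3, an RNA-binding protein gene, had signals of 169.8 and 144 against 62.6 and 66.8 (log2 change -1.10 ± 0.13, limma adjusted p = 0.0436). Retreg3, a receptor of reticulum turnover, had signals of 174 and 183 against 88.0 and 83.8 (log2 change -0.94 ± 0.11, limma adjusted p = 0.0406). These 2 genes had 41.2% and 48.0% of the signal left.

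Dim genes made up the rest of the lower calls. Cmtm8 had signals of 45.7 and 50.8 in Ctx +/- and of 3.1 and 4.09 in Ctx -/- (limma adjusted p = 0.0424). Tlr12, a toll-like receptor gene, had signals of 44.9 and 31.5 against 1.58 and 1.87 (limma adjusted p = 0.0277). Tapbpl, an antigen-presentation chaperone gene, had 26.5 and 22 against 1.64 and 3.50, and Papss2, a sulfate-donor synthase gene, had 17.1 and 20.2 against 0.421 and 1.06 (limma adjusted p = 0.0424 and 0.0407). In 14 of the 22 lower genes both Ctx -/- arrays were below 16, the constant added before taking logs, so these log2 changes understate the ratio of the signals and their low end has no firm level.

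Raly, an RNA-binding protein gene, was the single autosomal gene that was higher. Its signals were 205 and 232 in Ctx +/- and 539 and 476 in Ctx -/-. The groups did not overlap, and the log2 change of 1.16 ± 0.15 was just inside the threshold (limma adjusted p = 0.0491). It did not pass in any of the 8 analyses that left out 1 array. Among genes that did not pass, Rmst, a long noncoding RNA of neural cells, had signals of 60.9 and 83.1 against 224 and 168 (log2 change 1.27 ± 0.18, limma adjusted p = 0.0838). Mndal had 19.1 and 13.3 against 68.1 and 67.7, and Glis1, a zinc finger factor, had 3.6 and 5.72 against 41.1 and 58.9 (limma adjusted p = 0.191 and 0.285).

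Other large changes in the cortex did not pass, and they are given as values. Sulf1, which trims sulfate from heparan sulfate, had signals of 91.9 and 90.0 in Ctx +/- and of 5.1 and 22.4 in Ctx -/- (log2 change -1.91 ± 0.28, limma adjusted p = 0.0843). Krt18, an epithelial keratin, had 89.9 and 46.2 against 12.9 and 13.6, and Cfap126, a gene of motile cilia, had 91.6 and 78.8 against 35.4 and 6.49 (limma adjusted p = 0.306 and 0.292). In each of these genes 1 of the groups had arrays well apart from each other. Upward, Grb7 had 3.58 and 1.26 against 24.9 and 27.2, and Lama2, a laminin chain, had 12 and 12.8 against 48.1 and 40.4 (limma adjusted p = 0.19 and 0.298). All 8 of the largest rises that did not pass were in genes whose Ctx +/- signals were below 100 in both arrays.

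Lists of other cells had no member past the threshold. The tested members were 13 for meninges and fibroblasts (median -0.12), 17 for endothelium (-0.19), 9 for the oligodendrocyte lineage (0.00108), 11 for neighbouring brain (-0.33) and 12 for immediate early and stress genes (0.03). For microglia, 13 were tested with a median of 0.30, and in 5 of them both Ctx -/- arrays lay above both Ctx +/- arrays, beside 15.7% of all autosomal genes. C1qa, a complement subunit made by microglia, had signals of 29.1 and 44.6 in Ctx +/- and of 69.6 and 79.3 in Ctx -/- (log2 change 0.79 ± 0.18, limma adjusted p = 0.263).

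Probe sets of 1 gene did not always move together. Over all 31526 probe sets tested, 71 passed (0.225%), of which 12 were for X or Y genes, 17 had no single gene name and 42 were for 33 autosomal genes. In 10 of these 33 genes the probe set that passed was not the brightest one that represents the gene above; they are named here after their values were seen. Lower on such a probe set were Trp53bp1, Clic6, Nfia, Rbbp4, Neto1 and Vamp3, and higher were Tubb5, Sema6d, Rian and Ntrk3. Nfia, a nuclear factor of gliogenesis, fell on that probe set from 1001 and 946 to 313 and 339.8, while its brightest probe set was at -0.11 (limma adjusted p = 0.796). Tubb5, a beta tubulin, rose on that probe set from 548 and 613 to 1867 and 2145, while its brightest was at 0.17 (limma adjusted p = 0.732). Trp53bp1, a DNA damage adaptor, had 2 such probe sets at -2.92 and -2.39, and its brightest was at 0.29. In BG the same probe sets also passed as lower for Trp53bp1 (-2.35 and -2.08) and Nfia (-0.58). Those of Sema6d (1.44), Rian (0.90) and Ntrk3 (0.80) passed as higher in BG. Those of Clic6, Rbbp4, Neto1, Vamp3 and Tubb5 did not pass in BG. For Neto1 and Clic6 the brightest probe set moved the same way without passing, at -1.20 and -1.73. Of the 23 genes, 11 had several probe sets and in 9 of them all had the same sign.

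The cortical effect was also set against that in basal ganglia, where the same genotypes gave 988 autosomal genes past the threshold (7.52%). Of the 22 genes lower in the cortex, 8 also passed as lower in BG and 2 passed as higher there. These BG counts rest on every BG array: without BG +/- replicate 2 or 3 the 988 became 85 or 137, and without BG -/- replicate 2 or 3 it became 29 or 22, of all autosomal genes. In the same order the 8 became 5, 5, 6 and 5, and the 2 became 0 each time. Without Ctx -/- replicate 2 or 3 the 988 became 405 or 403, the 8 became 6 and the 2 became 0. Without Ctx +/- replicate 2 or 3 the 988 became 1140 or 1141, and the 8 and the 2 did not change. The 2 also became 0 without a filter, with arrays centred on their median and with the replicate number as a block. The difference between the effects was tested directly in limma and passed for 45 autosomal genes (0.342%), including 15 of the 23. That test rests on every array: with any 1 array left out, 1 or 2 autosomal genes passed, while 677 passed with a trend in eBayes, and of the 15 Ttr alone passed in all 8 such analyses. Ttr had low signals in BG +/-, at 18.6 and 34.3, which left little room for a fall there. All 15 kept the sign of their difference in every alternative that tested them.

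Gad1, Gad2, Lhx6, Sst and Nxph1 fell more in the cortex than in BG. For Slc32a1, also a GABA gene, the log2 changes do not settle the order. Its signals were 46.4 and 46.5 in Ctx +/- and 1.35 and 0.364 in Ctx -/-, with 1.85% of the mean left. In BG they were 474 and 403 in +/- and 24.2 and 42.9 in -/-. With dim cortical controls and Ctx -/- arrays near the floor, the constant added before taking logs limits its cortical log2 change. Gad1 had signals of 1907 and 1719.8 in BG +/- and of 1427 and 1298 in BG -/-, a log2 change of -0.41 ± 0.18. The cortical effect was more negative by 3.14 ± 0.25 (adjusted p of the difference = 0.0211 in limma). Lhx6 had signals of 551 and 521 in BG +/- and of 429 and 427 in BG -/- (-0.31 ± 0.14), and the difference was -2.74 ± 0.20 (limma adjusted p = 0.0161). The BG -/- arrays were lower than BG +/- in both genes, without passing, and kept most of their signal. Gad2 and Nxph1 also fell further in the cortex, with differences of -1.40 ± 0.20 and -1.88 ± 0.28 (limma adjusted p = 0.0471 and 0.0499).

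Somatostatin had opposite directions. Sst had signals of 1907 and 1695 in BG +/- and of 2899.7 and 2807 in BG -/-. This rise of 0.66 ± 0.13 (limma adjusted p = 0.0254) stood beside the cortical fall of 1.82. The rise did not pass when any 1 BG or Ctx -/- array was left out. The difference was -2.48 ± 0.18 (limma adjusted p = 0.0161). Rbms3 likewise had opposite signs, at 0.64 ± 0.13 in BG and -1.10 ± 0.13 in the cortex, with a difference of -1.73 ± 0.19 (limma adjusted p = 0.0318). Npy rose in BG, from 681 and 647 to 1480.0 and 1413 (1.11 ± 0.13, limma adjusted p = 0.00721), and its difference of -1.71 ± 0.18 passed although its cortical change did not (limma adjusted p = 0.0275).

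The DLX genes showed the reverse order, with less negative values in the cortex. Dlx1 had signals of 1232 and 1237 in BG +/- and of 3.67 and 15.5 in BG -/-, a log2 change of -5.65 ± 0.21 against -3.09 in the cortex (difference 2.56 ± 0.30, limma adjusted p = 0.0359). Dlx2, Dlx1as and Dlx6os1 had differences of 2.28 ± 0.22, 2.80 ± 0.25 and 2.56 ± 0.28 (limma adjusted p = 0.0267, 0.0237 and 0.0334). The controls started lower in the cortex, at 138 and 137 for Dlx1, while the -/- arrays of both regions were near the floor. For Maf, Nxph2, Nrxn3 and Slc32a1, which passed as lower in both regions, the difference did not pass. Their log2 changes in the cortex and in BG were -2.46 and -1.55 for Maf, -2.84 and -1.58 for Nxph2, -1.80 and -0.84 for Nrxn3, and -1.89 and -3.22 for Slc32a1. For Maf, the difference was -0.91 ± 0.31 (limma adjusted p = 0.211).

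**Figure D5:**
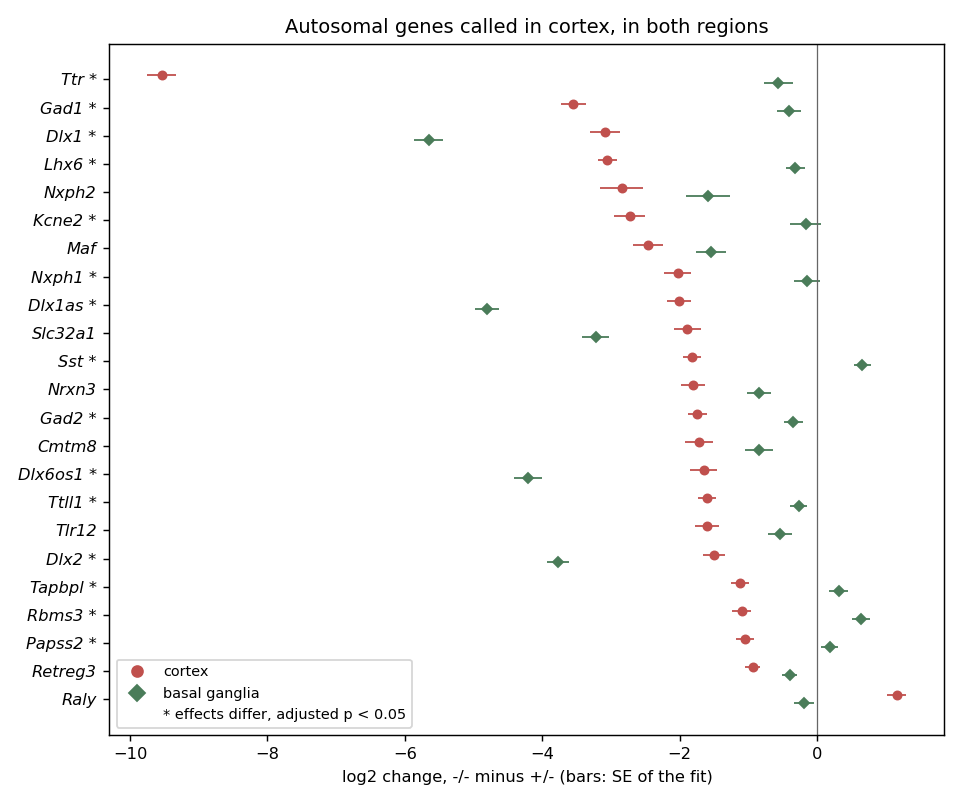
Log2 change from +/- to -/- in the cortex and in basal ganglia for the 23 genes that passed in the cortex. Each gene has a point for each region with its standard error as a bar, and an asterisk marks a difference between regions with a limma adjusted p under 0.05; Dlx1 is at -3.09 in the cortex and -5.65 in BG, and Gad1 at -3.55 and -0.41.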

How the data were processed

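Expression was measured on 8 single-colour oligonucleotide arrays, 2 for each group, with groups and replicate numbers taken from the sample titles. The files deposited hold linear intensity values, with 1 summarised signal for each of 45101 probe sets. The authors' software and build were not given in the sources used here; the mean of each array with 2% trimmed at each end was 150 (from the values), so arrays had been scaled alike before deposit. Depth does not apply to arrays, and 2 arrays a group limit the precision.

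The 64 control probe sets were left out. Platform annotation gave 1 symbol for 34945 probe sets, several for 932 and none for 9160. Chromosomes came from a RefSeq table of GRCm38.p6. Signals were used as log2(signal + 16), without further normalization, so differences of low genes are understated. The lowest 30% of probe sets by mean were left out, which kept 31526. A model of 4 group means over all 8 arrays was fitted in limma 3.58.1 (R 4.3.3, lmFit and eBayes), with two-sided tests adjusted by Benjamini-Hochberg over the 31526 and a threshold of 0.05. A gene is represented by its brightest single-gene probe set (13627 genes). The alternatives tried were other offsets, filters, normalizations and fits, and leaving out each array.

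Named are the DLX genes, all autosomal genes past the threshold, members of the lists with the smallest p, the largest changes that did not pass, and sex-linked genes. Some members that define the tissue or a list were named in addition after their values were seen. The members and lists were chosen with earlier results of these data known. Promoters were matched by symbol to RefSeq windows. The code for the fit was tested on simulated data.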

Additional observations from a re-analysis of the deposited data

Results flagged for a closer look

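For 15 of the 23 autosomal genes that passed in the cortex, the effect of the -/- genotype differed between cortex and basal ganglia by a direct limma test of the difference (Benjamini-Hochberg adjusted p under 0.05). Values are the cortical log2 change minus that in basal ganglia, with n = 2 arrays in each of 4 groups. The effect was more negative in the cortex for the interneuron genes Gad1 (-3.14), Lhx6 (-2.74), Sst (-2.48), Nxph1 (-1.88) and Gad2 (-1.40). It was also more negative there for the choroid plexus genes Ttr (-8.98) and Kcne2 (-2.56). These 2 genes had low signals in BG +/-, at 18.6 and 34.3 for Ttr and 11.7 and 4.09 for Kcne2. That left little room for a fall in basal ganglia. The cortical effect was likewise the more negative for Rbms3 (-1.73), Tapbpl (-1.43), Ttll1 (-1.34) and Papss2 (-1.23). The effect was less negative in the cortex for Dlx1 (2.56), Dlx2 (2.28), Dlx1as (2.80) and Dlx6os1 (2.56), which had brighter controls in basal ganglia. With any 1 array left out, 12 of the 15 no longer passed in any analysis that tested them, and Ttr passed in all 8. No group has more than 2 arrays, so single arrays were not screened for outlying values.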

How the results depend on the processing

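Counts are autosomal genes lower, genes higher, probe sets passed and genes whose effect differed between regions, which were 22, 1, 71 and 45. They became 12, 0, 41 and 2 with an offset of 1, and 35, 11, 146 and 276 with an offset of 64. Without a filter the first 2 and the last were 13, 0 and 5, and with the lowest 50% left out 7 were higher, 112 probe sets passed and 288 differed. Centring each array on its median gave 0 higher and 17 differing, and the mean of all probe sets of a gene gave 22 differing. Quantile normalization gave 18, 1, 60 and 33. With only the 4 Ctx arrays in the fit the counts were 7, 0 and 26. A trend in eBayes gave 55, 19, 212 and 677, and 21 of its 74 autosomal genes were among the 23. With the replicate number of the titles as a block they were 11, 0, 36 and 1. Same-numbered arrays did not deviate together over the probe sets (correlations from -0.026 to 0.022). With 2 arrays a group this cannot exclude that the numbers pair the arrays, and the labels do not say. Leaving out 1 array gave 5 to 12 lower, 0 higher, 19 to 39 probe sets and 1 to 2 differing. The count in BG, 988, ranged from 22 to 1141 with 1 array left out and from 482 to 2485 over the other alternatives. The sign turned for genes near 0 that did not pass: Bcl11b was at 0.061 with arrays centred on their median, Neurod6 and Fezf2 lay between -0.14 and 0.14 and between -0.021 and 0.23 with 1 array left out, Bcl11b between -0.0201 and 0.0146, and Trp53bp1 was at -0.85 as the mean of its probe sets. The causes were not tested. All 23 genes kept their sign in each of the 18 alternatives that tested them. Signals below 16, as in both -/- arrays of 14 of the 22 lower genes, limit how far a fall can be read.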

Other observations

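Of the 45 autosomal genes whose effect differed between cortex and basal ganglia (limma adjusted p under 0.05), 30 did not pass in the cortex alone. All 30 passed in basal ganglia, 25 as higher and 5 as lower. The 2 genes described here were picked after their values were seen. Otx2, a homeobox factor of choroid plexus and neighbouring brain, had signals of 66.9 and 55.6 in Ctx +/- and of 13.6 and 12 in Ctx -/-, and of 13.3 and 34.9 in BG +/- and 95.4 and 71.2 in BG -/-. It rose in BG (1.35 ± 0.27, limma adjusted p = 0.0284), and the difference was -2.77 ± 0.38 (limma adjusted p = 0.046). Foxp1, a forkhead factor of striatal and cortical projection neurons, had signals of 339 and 410.2 in Ctx +/- and of 537 and 479 in Ctx -/-, and of 912 and 932 in BG +/- and 261 and 285 in BG -/-. It fell in BG (-1.70 ± 0.14, limma adjusted p = 0.00355), and the difference was 2.13 ± 0.20 (limma adjusted p = 0.0253). With 1 array left out, 1 or 2 genes in all passed the test of the difference.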
